A study of Mus musculus with 2 samples.

Results

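Autophagy is the process by which a cell encloses part of its own contents in a double membrane, the autophagosome, and delivers it to the lysosome. A kinase complex around Ulk1 starts the process, a lipid kinase complex around Becn1 marks the membrane, lipid carriers make it grow, and enzymes resembling those of ubiquitin conjugation attach proteins of the Atg8 family to it. Cargo receptors tie the contents to the Atg8 proteins, and membrane fusion proteins join the closed vesicle to the lysosome. In the mammary gland, lysosomal and autophagic degradation is known to be active when milk removal stops and the gland begins to regress.

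The 37 genes described here are the core autophagy machinery, chosen by name. A probe set, the group of short probes that measures a transcript on the array, counted for a gene when the platform annotation, updated to current symbols, gave that gene alone. This held for 83 probe sets of 35 genes, out of 18193 named genes on the array. Optn was not among the annotated genes, and the 3 probe sets of Bnip3l are also assigned to a Bnip3l pseudogene, so these 2 cargo receptor genes have no value below.

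Mammary glands of female CD1 mice were taken on day 0 of involution, when pups were removed at day 10 of lactation, and on day 1. Litters had been set to 6 pups, and the mice, 6 weeks old when bought, had been virgins before mating with CD1 males; the labels name no genotype or drug for either group. Each day is a pool of RNA from 5 mice, hybridised to 1 Affymetrix Mouse Genome 430 2.0 array, so there are 2 arrays and no replicates. No test, SD or p-value between days is possible, and every difference below is between these 2 arrays.

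Values are MAS 5 signals, a probe set brightness on a linear scale. A gene was called measured when its brightest probe set exceeded 77.7 signal units on at least 1 array; this floor is the median signal over both arrays. Log2 ratios are of the day 1 over the day 0 signal, and a value at the floor gives only a bound, written "at least". Every one of the 35 annotated members passed, and 34 did so on both days.

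The day 1 array was dimmer in its spike-in controls, with a median log2 ratio of -1.16, and a range of -2.14 to -0.50, over 15 hybridisation control probe sets. Scaling on these controls would raise the median of all measured genes by 1.09 and centring on the median would raise it by 0.34, while loess and quantile normalization would raise it by 0.11 and 0.10. Ratios are therefore also given relative to -0.12, the middle log2 ratio over the 13239 genes measured. The beta-actin probe sets had a 3' to 5' signal ratio of 2.5 on day 0 and 1.51 on day 1, those of Gapdh 1.52 and 1.48, and those of pyruvate carboxylase 13.5 and 7.86; the part of RNA quality in the ratios was not tested. The tissue label was checked against milk protein genes. All 6 of them, Wap and Csn2 among them, had 31909 signal units or more on both arrays.

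Of the 35 measured members, 8 were at least 2-fold higher on day 1 (22.9%), compared with 10.4% of all measured genes. Only 2 members were at least 2-fold lower (5.71%), compared with 13.3% of all measured genes, and 25 lay between. The 8 were Sqstm1, Atg2a, Gabarapl1, Wipi2, Atg7, Map1lc3a, Pik3r4 and Ulk1, and the 2 were Atg4a and Atg3. The median log2 ratio of the members was 0.24, which is 0.36 above that of all measured genes. Among genes above the floor on both arrays, the shares past 2-fold were 11.6% upward and 11.1% downward, against 7 and 2 of 34 members. Each role had members on both sides of 0, apart from the pair of fusion genes. With RNA from whole glands, fewer cells of a type and less RNA per cell cannot be told apart.

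**Figure D1:**
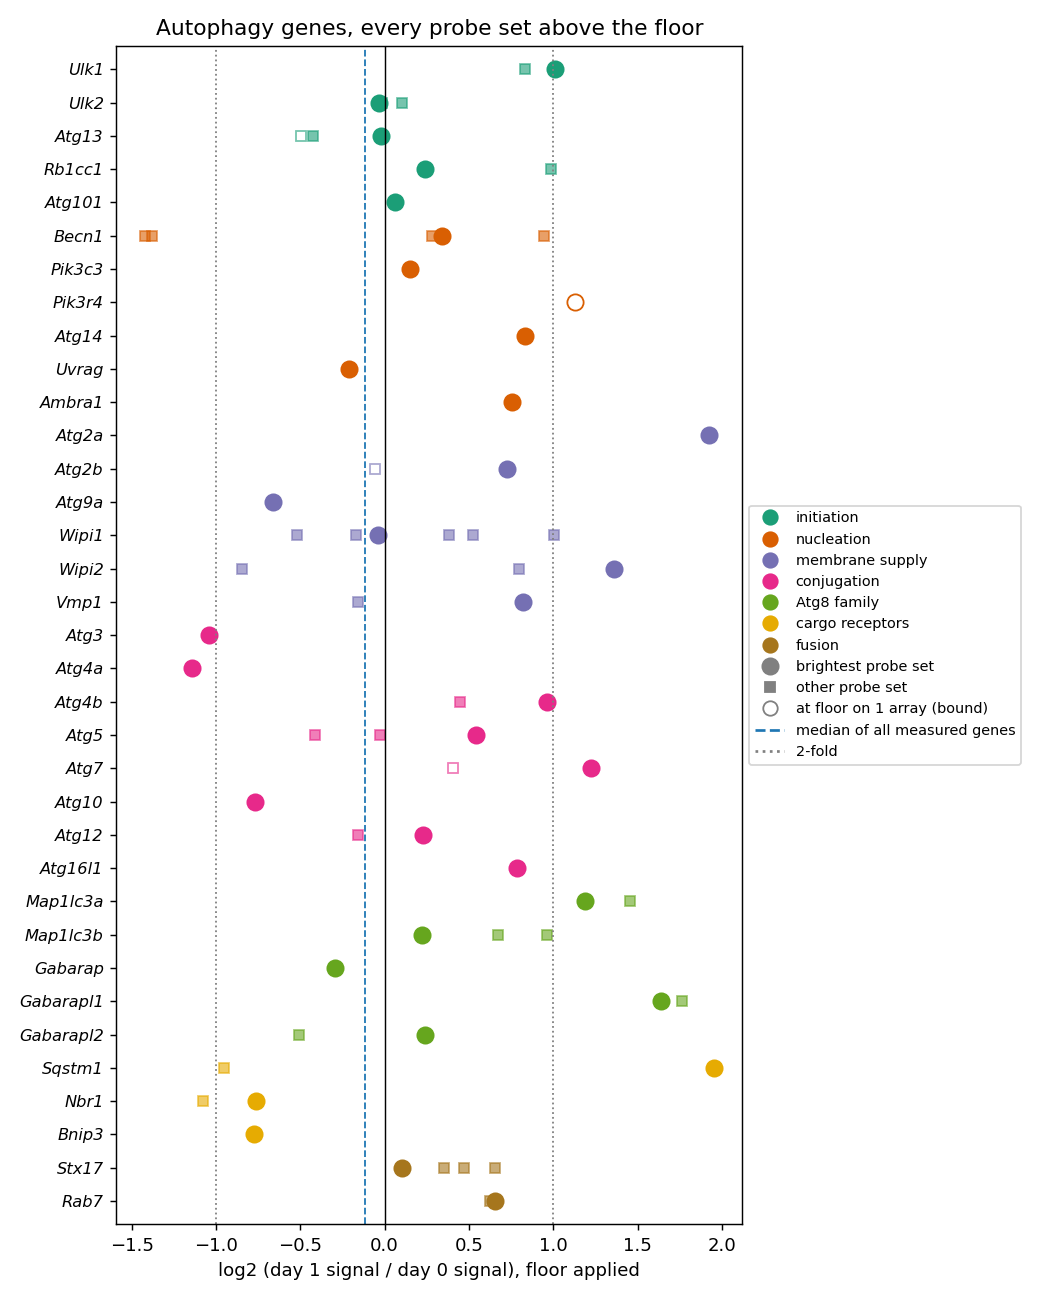
Log2 ratio of day 1 over day 0 signal (x axis) for every probe set above the floor, by gene (y axis) and coloured by role; large circles are the brightest probe set of a gene, small squares the others, and open symbols are at the floor on 1 array. Sqstm1 (1.95), Atg2a (1.93) and Gabarapl1 (1.64) lie farthest to the right and Atg4a (-1.14) and Atg3 (-1.04) farthest to the left among the brightest probe sets; the last 2 turn above 0 under hybridisation control scaling.

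Promoter letters are shown for 4 members that share a short motif but differ in direction, and further on for Gabarapl1. The sequences are from RefSeq on build GRCm38.p6 and were available for 30 of the 37 members, in 35 windows running from 250 bases before to 50 bases after a transcript start. CACGTG, the palindromic core of sites that basic helix-loop-helix factors such as Tfeb bind, was present in 5 of the 35 windows (14.3%) and in 7.15% of all 32851 windows. Capitals mark the motif, and each stretch lies upstream of the start and reads 5′ to 3′ on the strand of the gene.
Atg3, chr16:45158675-45158823, plus strand: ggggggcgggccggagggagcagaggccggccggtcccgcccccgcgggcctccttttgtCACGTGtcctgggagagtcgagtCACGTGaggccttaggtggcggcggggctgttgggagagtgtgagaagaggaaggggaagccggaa
Bnip3, chr7:138909549-138909674, minus strand: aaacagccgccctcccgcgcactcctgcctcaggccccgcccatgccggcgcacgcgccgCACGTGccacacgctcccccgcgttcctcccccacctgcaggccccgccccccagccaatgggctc
Atg7, chr6:114670904-114671029, plus strand: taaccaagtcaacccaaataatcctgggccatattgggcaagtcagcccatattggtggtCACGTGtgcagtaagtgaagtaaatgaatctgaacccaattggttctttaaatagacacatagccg
Atg5, chr10:44268265-44268338, plus strand: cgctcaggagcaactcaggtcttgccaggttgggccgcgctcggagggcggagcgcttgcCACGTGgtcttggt

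The Atg3 stretch holds the motif at 94 and 71 bases before the start, and the others hold it once, at 132 bases in Atg7, 108 in Bnip3 and 14 in Atg5. The fifth window with the motif is that of Atg14, where it spans the start itself. The genes with these letters had log2 ratios of -1.04 (Atg3), -0.78 (Bnip3), 0.54 (Atg5), 0.83 (Atg14) and 1.23 (Atg7), so the match came with ratios on both sides of 0.

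The palindrome TTCNNNGAA, the form of letters that Stat proteins bind, was found in 5 of the 35 member windows (14.3%) and in 8.30% of all windows. It lay in the windows of Gabarapl1, Gabarap, Nbr1, Stx17 and Wipi1, of which Gabarapl1 alone was at least 2-fold different. The Gabarapl1 stretch is shown because that gene had the highest ratio of its family.
Gabarapl1, chr6:129532942-129533046, plus strand: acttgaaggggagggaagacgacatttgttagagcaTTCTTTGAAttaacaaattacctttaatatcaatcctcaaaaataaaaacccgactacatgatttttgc

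Its match starts 214 bases before the start. TGACTCA and GTAAACA, read on both strands, were in 0 of the member windows and in 5.20% and 3.65% of all windows. No match of 1 motif overlapped a match of another. Rb1cc1, Becn1, Pik3c3, Atg12, Atg16l1, Map1lc3a and Bnip3l were the members without a window.

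Of the 5 initiation genes, 1 was at least 2-fold different. Ulk1, the kinase that starts autophagosome formation when nutrients or energy run low, had a signal of 645.7 on day 0 and 1301.5 on day 1, which is 2.02-fold higher. Its dimmer probe set gave 116.5 and 207, a log2 ratio of 0.83. Both Ulk1 probe sets were thus brighter on day 1, with the brighter of them just past 2-fold. Under loess and quantile normalization its log2 ratio was 0.87 and 0.88.

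The related kinase gene Ulk2 had nearly the same signal on both days at each of 3 probe sets, 682.4 and 666.1 at the brightest, with log2 ratios from -0.03 to 0.10. Atg13, the adaptor that holds the kinase complex together, had 447.3 and 441.1. The dimmer Atg13 probe sets gave -0.42 and, as a bound at the floor on day 1, -0.49 on the log2 scale. Atg101, a partner that stabilises Atg13, was at 269.3 and 280.9. Rb1cc1, the large scaffold of the complex also known as Fip200, had signals of 363 and 428.3 at its brightest probe set and 122.1 and 242 at another, so its probe sets gave log2 ratios of 0.24 and 0.99. The initiation genes had a median log2 ratio of 0.06.

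The 6 nucleation genes had a median of 0.55, with 5 above 0 and 1 at least 2-fold higher. Becn1 encodes the scaffold of the complex that makes phosphatidylinositol 3-phosphate on the growing membrane. Its brightest probe set read 1292.1 on day 0 and 1635.9 on day 1, a log2 ratio of 0.34, and the next read 700.1 and 849.3. Of 3 dimmer probe sets, 2 fell from 215.7 to 82.8 and from 209.6 to 78.3, close to the floor, and 1 went from 87.3 to 168.2. The 5 Becn1 probe sets therefore spanned -1.42 to 0.95 and gave no single direction.

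Pik3c3, the lipid kinase itself, had 313.2 and 347.2, a log2 ratio of 0.15. Pik3r4, its regulatory subunit, was at 62.1 on day 0, below the floor, and 169.8 on day 1, which is at least 2.19-fold higher. Pik3r4 has a single probe set, of a kind that can match several transcripts. Atg14, the subunit that directs the kinase to autophagy, went from 301.4 to 536.6 (log2 ratio 0.83), and Ambra1, a regulator that binds Becn1, from 234.4 to 396.4 (0.76). These 2 genes were higher on day 1 by less than 2-fold. Uvrag, the subunit that takes the place of Atg14 in endosomal complexes, had 499.6 and 431.5, a ratio of -0.21 that turned above 0 under median centring (0.16) and hybridisation control scaling (0.95).

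Membrane supply genes had the highest median of the roles as deposited, 0.77 over 6 genes at their brightest probe sets, and 2 of them were at least 2-fold higher. This ranking did not hold with the mean of probe sets, nor without shared probe sets. With the mean, Wipi2 was at 0.44, Atg2b and Vmp1 at 0.33, and Wipi1, the gene that was higher than as deposited, at 0.20. Without shared probe sets, Atg2b gave a bound of -0.06 and Wipi1 was at 0.38. Map1lc3b, then the middle gene of the Atg8 family, was at 0.67. Atg2a, a lipid transfer protein that feeds the growing membrane, rose from 90 to 341.8, 3.8-fold. Its day 0 signal was just above the floor, and with a floor at the 75th percentile its log2 ratio was 0.45. The close relative Atg2b had 128.4 and 212 (log2 ratio 0.72), and a second probe set, at 80.9 and 52.9, gave a bound of -0.06. Both Atg2 genes thus had a brighter day 1 signal at their brightest probe set, from a dim day 0 signal.

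Wipi2 reads the lipid mark and recruits the conjugation machinery. It went from 223.4 to 572.5, 2.56-fold higher, and from 267.8 to 464.7 at a second probe set (log2 ratio 0.80). The dimmest probe set, with 226.3 and 125.9, had a ratio of -0.85, so the Wipi2 probe sets disagreed and their mean was 0.44. The related Wipi1 had 1726.7 and 1682.1 at its brightest probe set, and its 6 probe sets ranged from -0.52 to 1.00.

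Vmp1, a membrane protein of the endoplasmic reticulum needed for autophagosome formation, had 1771.3 and 3126.5 (log2 ratio 0.82) but 644 and 577.8 at its other probe set (-0.16). Atg9a, which encodes the lipid scramblase of the small vesicles that seed the autophagosome, was lower on day 1, with 526.6 and 332.8. Its log2 ratio was -0.66, and 0.50 under hybridisation control scaling.

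**Figure D2:**
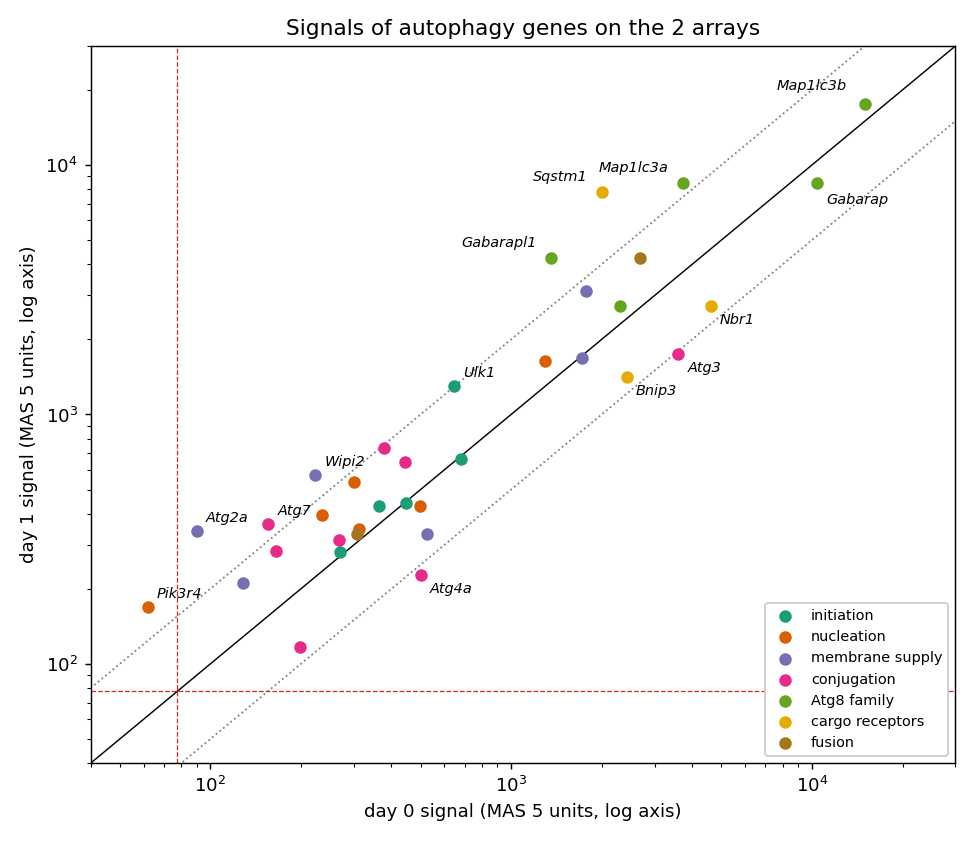
Day 0 signal (x axis) against day 1 signal (y axis) of the brightest probe set of each of the 35 measured members, in MAS 5 units on log axes; the solid line marks equal signals, dotted lines 2-fold, red dashed lines the floor of 77.7. Sqstm1, Gabarapl1 and Map1lc3a lie above the upper 2-fold line well above the floor on both days, while Atg2a and Pik3r4 lie above it from a day 0 signal near or below the floor.

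The 8 conjugation genes split. Atg7, the activating enzyme shared by both conjugation routes, rose from 156 to 364.9, 2.34-fold, and a dimmer probe set at 19.5 and 103.1 gave at least 1.33-fold. With a floor at the 75th percentile the Atg7 log2 ratio was 0.55, under 2-fold. Atg3, the enzyme that transfers Atg8 proteins to lipid, fell from 3599 to 1751.4, 2.05-fold lower. Atg10, which transfers Atg12 to Atg5, had 199.2 and 116.8, a log2 ratio of -0.77. The activating enzyme was thus higher on day 1, and the 2 transfer enzymes downstream of it were lower, except under hybridisation control scaling, where Atg3 was at 0.12 and Atg10 at 0.39. Relative to all measured genes Atg3 was below 0 under each of the 5 scalings, from -1.13 to -0.85.

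Atg4 proteases trim Atg8 proteins before conjugation and cut them off the membrane afterwards. Atg4a fell from 502.4 to 228.1, 2.20-fold lower, while Atg4b had 376.7 and 735.4, a log2 ratio of 0.97, and 193.7 and 264.3 at a second probe set (0.45). These 2 protease genes lay on opposite sides of 0 as deposited, and Atg4a reached 0.02 with hybridisation control scaling.

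Atg5, Atg12 and Atg16l1 encode the complex that decides where Atg8 proteins are attached. Atg16l1 went from 164.9 to 284.1 (log2 ratio 0.78). Atg5 had 443 and 644.6 (0.54), with -0.03 and -0.41 at its other 2 probe sets, and Atg12 had 268.8 and 315.3 (0.23), with -0.16 at another. No member of this complex was at least 2-fold different, and the probe sets of Atg5 and Atg12 lay on both sides of 0.

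Within the Atg8 family, whose lipid-bound proteins coat the autophagosome and hold its cargo, 2 of 5 genes were at least 2-fold higher. Gabarapl1 rose from 1360.6 to 4238.1, 3.11-fold, and its second probe set from 330.4 to 1122.7, 3.4-fold. Map1lc3a, which encodes a form of LC3, rose from 3729.3 to 8484.9, 2.28-fold, and from 1465.8 to 4014.4 at its second probe set, 2.74-fold. Both probe sets of both genes passed 2-fold, which no other member with several measured probe sets showed. These genes were at least 2-fold higher in all 10 settings tried for scaling, floor and choice of probe set.

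Map1lc3b, the LC3 gene whose protein is the usual marker of autophagosomes, had 15039.9 and 17519.6 at its brightest probe set, a log2 ratio of 0.22. Its other measured probe sets gave 3207.8 and 5105.8 (0.67) and 2696.9 and 5258.1 (0.96). All 3 were brighter on day 1, none by 2-fold. Gabarapl2 had 2296.4 and 2715.7 (0.24), with -0.51 at a dim probe set, and Gabarap 10412.6 and 8502.2 (-0.29). The Gabarap ratio turned to 0.08 under median centring and 0.87 under hybridisation control scaling, but relative to all measured genes it stayed between -0.18 and -0.10 in the 5 scalings.

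Among the 3 cargo receptor genes with a value, Sqstm1 had the highest ratio of all members as deposited, although Atg2a was above it under quantile normalization (2.13 against 1.91) and loess (2.14 against 1.92). It encodes p62, a receptor that binds ubiquitin-tagged protein aggregates and is itself degraded with them. Its signal rose from 2012.2 to 7781, 3.87-fold, a ratio above that of 97.8% of measured genes. A second, dim Sqstm1 probe set went the other way, from 155.3 to 80.4 (log2 ratio -0.95), so the probe sets disagree and their mean was 0.50. The brighter one carries the suffix _a, given to probe sets shared between transcripts of the same gene. The setting without shared probe sets drops it together with other suffixes, and only the dim one is left.

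Nbr1, a receptor with the same domain plan as Sqstm1, was lower at both probe sets, with 4605.2 and 2718.8 (log2 ratio -0.76) and 1026.4 and 486.1 (-1.08). Bnip3, a mitochondrial receptor known to be induced by low oxygen, was lower as well, with 2427.5 and 1417.7 (-0.78). Sqstm1 and the other 2 receptors thus lay on opposite sides of 0 as deposited, while hybridisation control scaling put Nbr1 at 0.40 and Bnip3 at 0.39. Relative to all measured genes Nbr1 and Bnip3 were below 0 in each of the 5 scalings, at most -0.57 and -0.58.

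The 2 fusion genes were not at least 2-fold different. Rab7, a small GTPase of late endosomes and lysosomes, had 2683.5 and 4227.2 (log2 ratio 0.66) and 1076.7 and 1659.6 (0.62) at its 2 probe sets, which were close to each other. Stx17, the membrane fusion protein placed on finished autophagosomes, had 308.3 and 330.9, and its 4 probe sets ranged from 0.10 to 0.65. All 6 probe sets of these genes were brighter on day 1.

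Under the 5 scalings, 6 members were at least 2-fold higher than the median of all measured genes every time, namely Sqstm1, Atg2a, Gabarapl1, Wipi2, Atg7 and Map1lc3a. The same was true of 9.97% of the 12266 genes measured under all 5. No member was at least 2-fold below that median in all 5, which held for 9.11% of genes. In all, 24 members were above the median every time and 8 below it, compared with 44.3% and 42.3% of genes. The 8 were Uvrag, Atg9a, Atg3, Atg4a, Atg10, Gabarap, Nbr1 and Bnip3, and the other 3, Ulk2, Atg13 and Wipi1, changed sides.

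**Figure D3:**
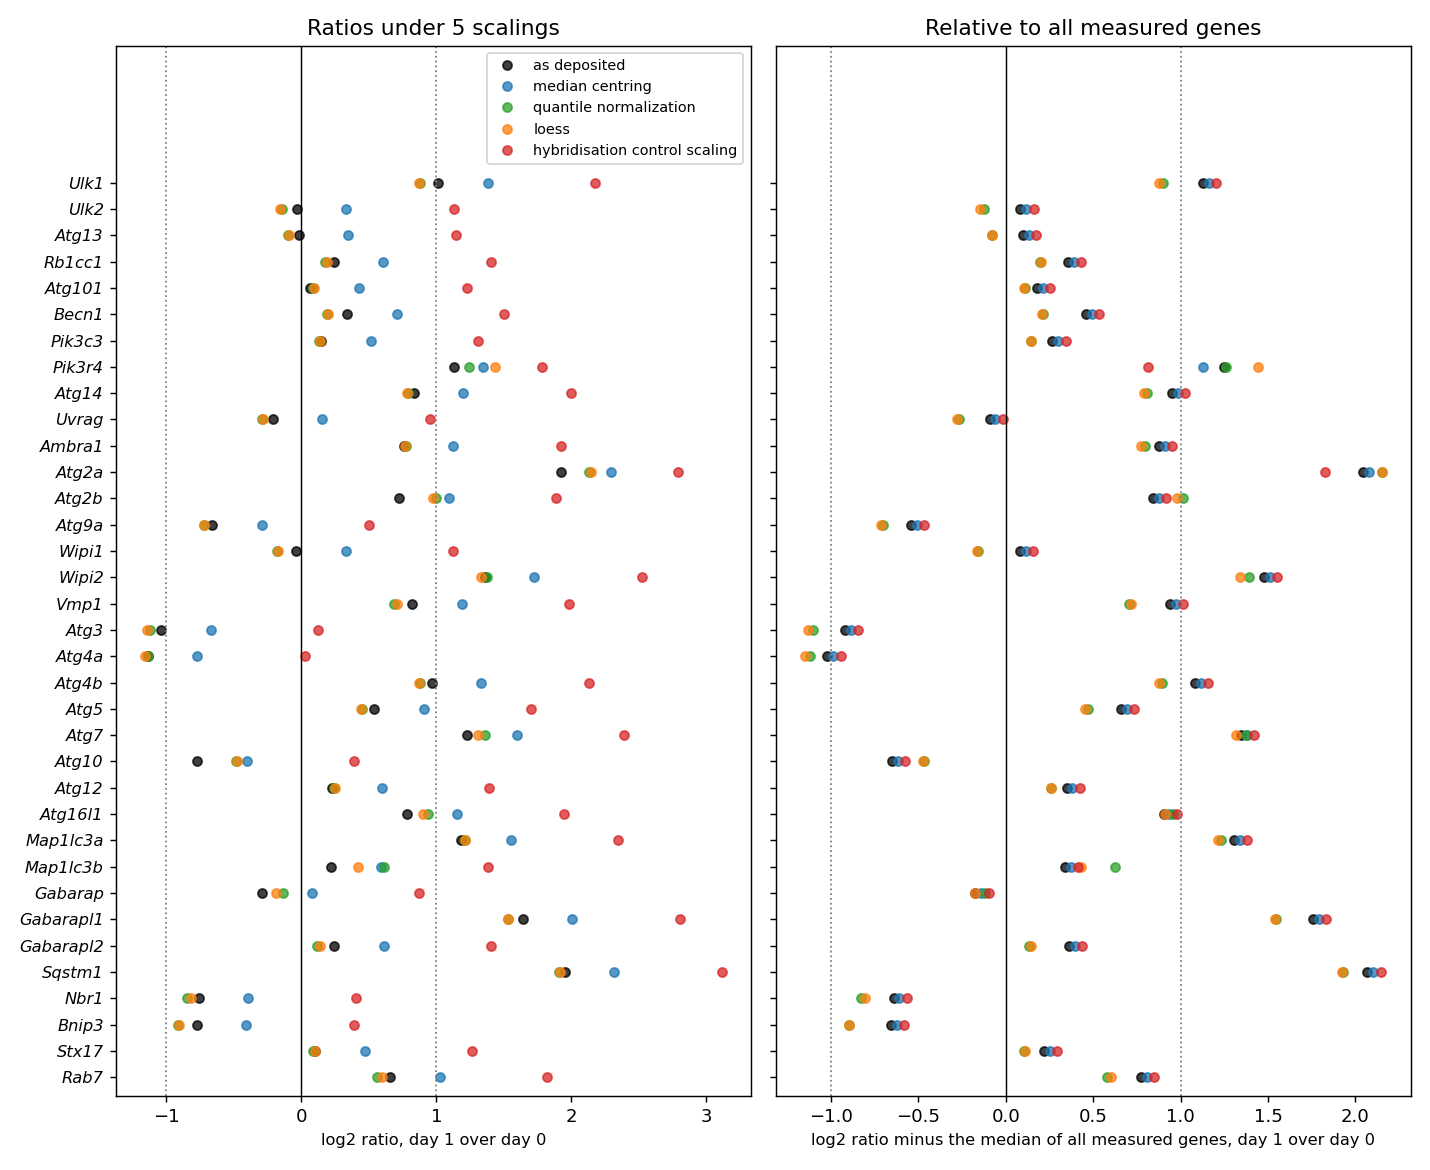
Log2 ratio of day 1 over day 0 (left) and the same minus the median of all measured genes (right) for each member (y axis) under the deposited scaling and 4 others, with dotted lines at 2-fold. Hybridisation control scaling moves every point of the left panel to the right, so that Atg3 and Atg4a reach 0.12 and 0.02, while on the right Sqstm1 stays between 1.92 and 2.14.

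A list of 67 other genes of the pathway was read in the same way. Of the 66 with a measured value, 9 passed 2-fold upward (13.6%) and 6 downward (9.09%), compared with 10.4% and 13.3% of all measured genes. The median log2 ratio was 0.16. The counts of this wider list lay nearer to those of all genes than the members' counts did, a difference that was not tested.

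Of the 15 regulators, 0 were at least 2-fold higher and 3 lower as deposited, counts that change with the scaling. The share lower was 20%, against 13.3% of all measured genes. Prkaa2, a catalytic subunit of the energy sensor AMPK, which activates Ulk1, fell from 4492.3 to 724.6. Its log2 ratio was -2.63, with -1.97 at a second probe set, and -1.47 under hybridisation control scaling. Prkaa1, the other catalytic subunit, was at 40.8 and 115.8, at least 1.49-fold higher from below the floor. The AMPK subunits Prkab1 and Prkag1 were at 0.32 and -0.57. Mitf, a transcription factor of the same family as Tfeb, was at -1.46, and Deptor, an inhibitor of mTOR, at -1.12, or -0.75 under median centring and 0.05 under hybridisation control scaling. Further measured Deptor probe sets ranged from -1.30 to -0.39. Tfeb itself, the activator of lysosomal and autophagy genes, had 91.3 and 167.4, a log2 ratio of 0.87 near the floor as deposited, and of 1.22 to 1.76, past 2-fold, under the other 4 scalings. Mtor, the kinase that restrains Ulk1 when nutrients are plentiful, had 459.6 and 415 (-0.15), and -1.36 at a dimmer probe set.

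Among 19 measured cargo receptor and adaptor genes outside the core, 5 were at least 2-fold higher (26.3%) and 1 lower (5.26%). The shares of all measured genes were 10.4% and 13.3%. Trp53inp1, a p53 target that binds LC3, rose from 2070 to 9026.5, a log2 ratio of 2.12, with 0.73 at its other probe set. Fkbp8 (1.59), a mitochondrial receptor, Tex264 (1.29), a receptor for endoplasmic reticulum, Trp53inp2 (1.16) and Stbd1 (at least 1.15), a glycogen receptor, were also higher. Retreg1, a receptor for endoplasmic reticulum, fell from 18637.9 to 6285, with -1.57 and -1.77 at its 2 probe sets. Retreg1 stayed below 0 under hybridisation control scaling (-0.41). Other endoplasmic reticulum receptors of the list were under 2-fold, with -0.70 for Rtn3, -0.30 for Sec62 and 0.53 for Ccpg1. Their further measured probe sets gave -0.42 for Rtn3, 0.59 and -0.54 for Sec62 and -0.13 for Ccpg1. Sec62 and Ccpg1 thus lay on both sides of 0.

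The 18 tethering and fusion genes had 3 at least 2-fold higher (16.7%) and 2 lower (11.1%). These shares lay near the 10.4% and 13.3% of all measured genes. Lamp2, a lysosomal membrane protein needed for autophagosome clearance, rose from 2576.9 to 6000.8, and its 4 probe sets ranged from 0.69 to 2.07. Vps33a (1.58, with -0.14 at a second probe set) and Vps11 (1.13, with 0.56 at a second), both of the tethering complex on lysosomes, were higher. Mon1a, part of the activator of Rab7, was at -1.46 and Rilp, a Rab7 effector, at -1.15, or 0.01 under hybridisation control scaling. Wdr45, a relative of Wipi2, was the membrane gene of the list that passed 2-fold, at 1.42, and none of the 3 further conjugation genes did. The other Wdr45 probe set gave 0.82.

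**Figure D4:**
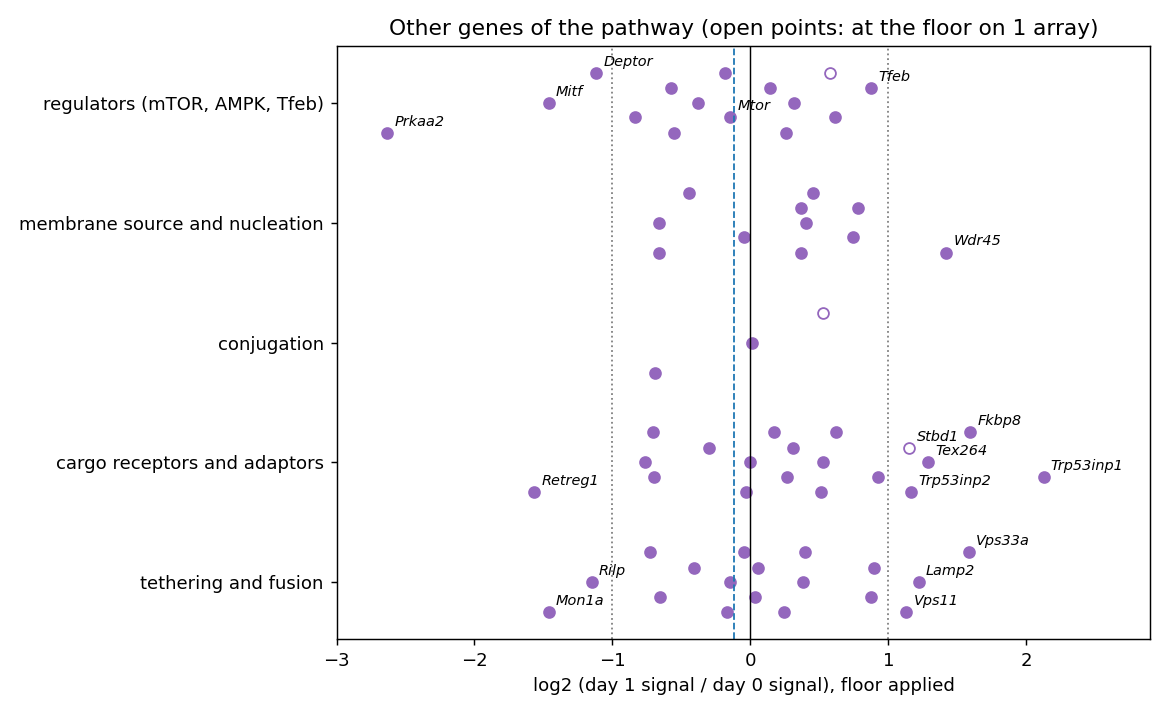
Log2 ratio of day 1 over day 0 signal (x axis) of 66 other pathway genes by role (y axis); filled points are above the floor on both arrays, open points at the floor on 1, the dashed line is the median of all measured genes and dotted lines are 2-fold. Trp53inp1 (2.12) lies farthest right and Prkaa2 (-2.63) farthest left, and Deptor and Rilp pass to just above 0 under hybridisation control scaling.

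Markers of cell types moved between the arrays as well. Luminal epithelial markers were at least 2-fold higher for 5 of 6 genes, with summed signals of 14868.5 on day 0 and 63561.6 on day 1, and macrophage markers for 4 of 7 measured, with 9508.3 and 36163.6. Epcam gave 7265.4 and 8857.3 of the luminal sums (log2 ratio 0.29). The 5 higher luminal genes were Cdh1 and the keratins Krt7, Krt8, Krt18 and Krt19. Of the macrophage sum, Cd14 gave 3816.8 and 29010.6, whereas the macrophage genes Adgre1 and C1qa were lower (-0.83 and -1.23). The part of these cells in the ratios of Sqstm1, Gabarapl1 and the other members was not tested. Milk protein genes were lower for 6 of 6 as deposited, with a median of -1.26 and summed signals of 534816 and 217477. That median is close to the -1.16 of the hybridisation controls, and relative to all measured genes it was -1.15. The highest signals of both arrays, 108570 and 40090.2, belonged to these genes. The part of array scaling in the milk protein ratios, or of an upper limit of signal, was not tested. Lymphocyte markers had 3 higher and 1 lower of 5 measured, with sums of 8610.9 and 9156.4. The 3 higher, Cd3d, Cd3g and Cd79a, were at the floor on day 0, so their ratios are bounds, and the lower was Cd3e (-1.23). Jchain gave 8269.1 and 8404.1 of the lymphocyte sums. Fibroblast (18639.3 and 22698.1), adipocyte (18659.2 and 20193.1) and myoepithelial markers (18751.2 and 19634.5) had 0 genes past 2-fold. Of the myoepithelial sum, Acta2 gave 15475.8 and 16710.1, whereas 4 of the 6 myoepithelial markers had ratios below 0, with a list median of -0.29. Skeletal muscle (16870.2 and 18686.5) had 1 of 6 higher, and endothelial (1220.7 and 952.1) and erythroid markers (531.4 and 260.5) 1 lower each, of 4 and 2 measured.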

How the data were processed

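The authors deposited 1 table of signal intensities for 45101 probe sets, computed with Affymetrix Microarray Suite 5.0, per the labels' protocols. In the deposited intensities both arrays had a mean of 250 after trimming 2% of probe sets at each end, so each array carries 1 factor of its own, and no source used here states the target. Detection calls were not used here, so presence is judged by the floor alone. The number of arrays limits the precision.

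The 64 Affymetrix controls were left out. Of the other 45037 probe sets, 34945 had 1 gene symbol, 932 several and 9160 none; 34741 of the 34945 were updated through the gene identifier to RefSeq names of GRCm38.p6, and those with several symbols were left out. Each gene is represented by its probe set of highest mean over both arrays, signals below the floor were set to it, and log2 was taken. A disagreement means that a further probe set was 0.5 log2 or more past 0 in the opposite direction, as in 5 members. Within genes, probe set ratios had a pooled SD of 0.69 log2 over 19 members and 0.56 over 3943 genes, a spread between probe sets and not between mice.

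All 37 members, and of the other list genes past 2-fold with Tfeb, Mtor and Lamp2, were to be named. Members, lists and motifs were chosen with earlier results of these data known, so they are no independent support for what those results showed. Alternatives were quantile normalization, median centring, hybridisation control scaling and loess (span 0.3), each with the probe set of a gene held, a floor at the 25th or the 75th percentile, 16 units added in place of a floor, the mean of probe sets, no shared probe sets, and thresholds of 1.5-fold and 3-fold. Shared probe sets were those with the suffix _a, _f, _s or _x. The script was tested on simulated data. Work was done in Python 3.11.15 with numpy 2.4.6, pandas 2.3.3, statsmodels 0.14.6 and matplotlib 3.10.9.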

Additional observations from a re-analysis of the deposited data

How the results depend on the processing

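No paired analysis was possible because each day has 1 array. The count of members at least 2-fold higher, 8 as reported, was 15 with median centring, 27 with hybridisation control scaling, 5 with a floor at the 75th percentile (where 32 members were measured), 4 with the mean of probe sets, 15 at 1.5-fold and 3 at 3-fold, and 6 to 8 otherwise. The count at least 2-fold lower, 2 as reported, was 0 with median centring, with hybridisation control scaling and at 3-fold, and 6 at 1.5-fold. Of all measured genes, 18.8% were higher and 8.22% lower with median centring and 48.7% and 2.28% with hybridisation control scaling. These shares were 7.9% and 11.3% with the mean of probe sets and 10.9% and 7.72% with the floor at the 75th percentile. At 1.5-fold they were 20.4% and 27.2%, and at 3-fold 3.85% and 4.33%. In the other settings they were 9.56% to 12.2% higher and 10.8% to 26% lower. Of the members past 2-fold, 8 of 10 were higher as deposited and all of them under median centring and hybridisation control scaling. The median log2 ratio of the members was 1.40 with hybridisation control scaling and 0.23 to 0.61 in the other settings. Relative to all measured genes it was 0.17 with the floor at the 75th percentile and 0.26 to 0.50 otherwise. With hybridisation control scaling all 11 members with a ratio below 0 turned above it, and median centring turned Ulk2, Atg13, Uvrag, Wipi1 and Gabarap. The mean of probe sets turned Becn1 (-0.25), Gabarapl2 (-0.13), Ulk2 and Wipi1, and leaving out shared probe sets turned Atg2b (a bound of -0.06) and Wipi1. Of the members past 2-fold, those that changed sign were Atg3 (0.12) and Atg4a (0.024) with hybridisation control scaling, which multiplies every day 1 signal by 1 factor, and that of Sqstm1 (-0.95) without shared probe sets, which leaves only its dim probe set. Ulk1 was under 2-fold with quantile normalization, loess, 16 units added and the mean of probe sets. With the mean of probe sets Wipi2 (0.44), Atg7 (0.82) and Sqstm1 (0.50) were under 2-fold as well. With the floor at the 75th percentile Atg2a (0.45) and Atg7 (0.55) were under 2-fold and Pik3r4 was not measured.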
